A study of Mus musculus with 9 samples.

Results

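The autonomic receptors and adenylyl cyclases of the atrioventricular (AV) node are described here through 9 genes, taken by symbol from a table of 34198 gene symbols. They are the adrenergic receptors Adrb1, Adra1a and Adra1b, the muscarinic receptor Chrm2, the adenosine receptor Adora1, the cyclases Adcy5 and Adcy6, and the G protein alpha subunits Gnai2 and Gnao1. All 9 passed the filter on low values and stood among the 12925 genes tested. Bulk RNA was sequenced from microdissected AV nodes of C57BL/6J mice, with 3 libraries from Cd11bDTR mice, 3 from Cx3cr1 Cx43-/- mice and 3 from Control mice. In Cd11bDTR mice the CD11b promoter drives the diphtheria toxin receptor in myeloid cells, and the labels call this group macrophage-depleted. In Cx3cr1 Cx43-/- mice, cells that express the fractalkine receptor gene Cx3cr1 lack Gja1, which encodes the gap junction protein connexin 43. The Control group is labelled by that word only. The form of the Cre driver, the toxin dose, whether Control mice received toxin, age, sex and pooling of nodes are not given in the sources used here. CD11b is carried by monocytes and neutrophils as well as macrophages, so the toxin receptor is not limited to macrophages.

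The AV node delays the impulse between atria and ventricles, and autonomic nerves set that delay. Noradrenaline acts on beta-adrenergic receptors, which through Gs switch on adenylyl cyclase. The cyclic AMP made by the cyclase opens pacemaker channels directly and activates protein kinase A, which speeds conduction. Acetylcholine and adenosine act on Chrm2 and Adora1, whose Gi and Go proteins inhibit the cyclases and release beta-gamma subunits that open inward rectifier potassium channels, which slows conduction. Alpha-adrenergic receptors of the alpha-1 class signal through Gq and phospholipase C instead.

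The deposited values are reads of a gene scaled to a fixed total per library (CPM), and the steps between low values put 1 CPM at 52.2 to 65.0 reads. The listed genes held 28.3% to 44.0% of the CPM total in Cd11bDTR libraries, 46.8% to 47.9% in Cx3cr1 Cx43-/- libraries and 42.8% to 48.7% in Control libraries. Of all libraries, Cd11bDTR library 9 had the lowest share. In Cd11bDTR against Control, all tested genes together had a median log2 change of -0.49, so the change of each of the 9 genes is also given relative to that median. The whole-node level of Gja1 was 71.7 ± 16.8 CPM in Cd11bDTR, 219 ± 36.4 CPM in Cx3cr1 Cx43-/- and 207 ± 41.8 CPM in Control libraries (SD, n = 3). It does not check the deletion, since other cells of the node express the gene. Cx3cr1 was lower in Cd11bDTR than in Control (log2 change -1.24, limma adjusted p = 0.0105), while the CD11b gene Itgam missed the threshold (0.31, adjusted p = 0.591). Libraries of a group are biological replicates per the design text, and p-values measure only the spread between these libraries. In bulk tissue, fewer cells of a type and less RNA per cell cannot be told apart.

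On the deposited scale, macrophage-depleted Cd11bDTR nodes had less RNA of 8 of the 9 genes than Control nodes, or of 5 with columns set to a common total and 4 with median-of-ratios scaling, as described below. Adra1b and Adrb1 had the largest log2 changes of the 9 genes. Their means were 12.1 ± 2.21 against 44.8 ± 4.94 CPM and 4.74 ± 2.46 against 15.7 ± 2.63 CPM (SD, n = 3). Both cyclases were lower, and Gnai2, Gnao1, Adora1 and Adra1a were lower on the deposited scale. Chrm2 did not pass the test. Of the 9 genes, 8 were called lower and 0 higher (limma, Benjamini-Hochberg adjusted p under 0.05), where 36.2% of all tested genes were called, 33% lower and 3.23% higher. The median log2 change of the 9 genes was -1.04, against -0.49 for all tested genes. In 6 of the 9, every Cd11bDTR library lay below every Control library, as it did in 38% of all tested genes, while 3.61% lay higher without overlap.

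**Figure D1:**
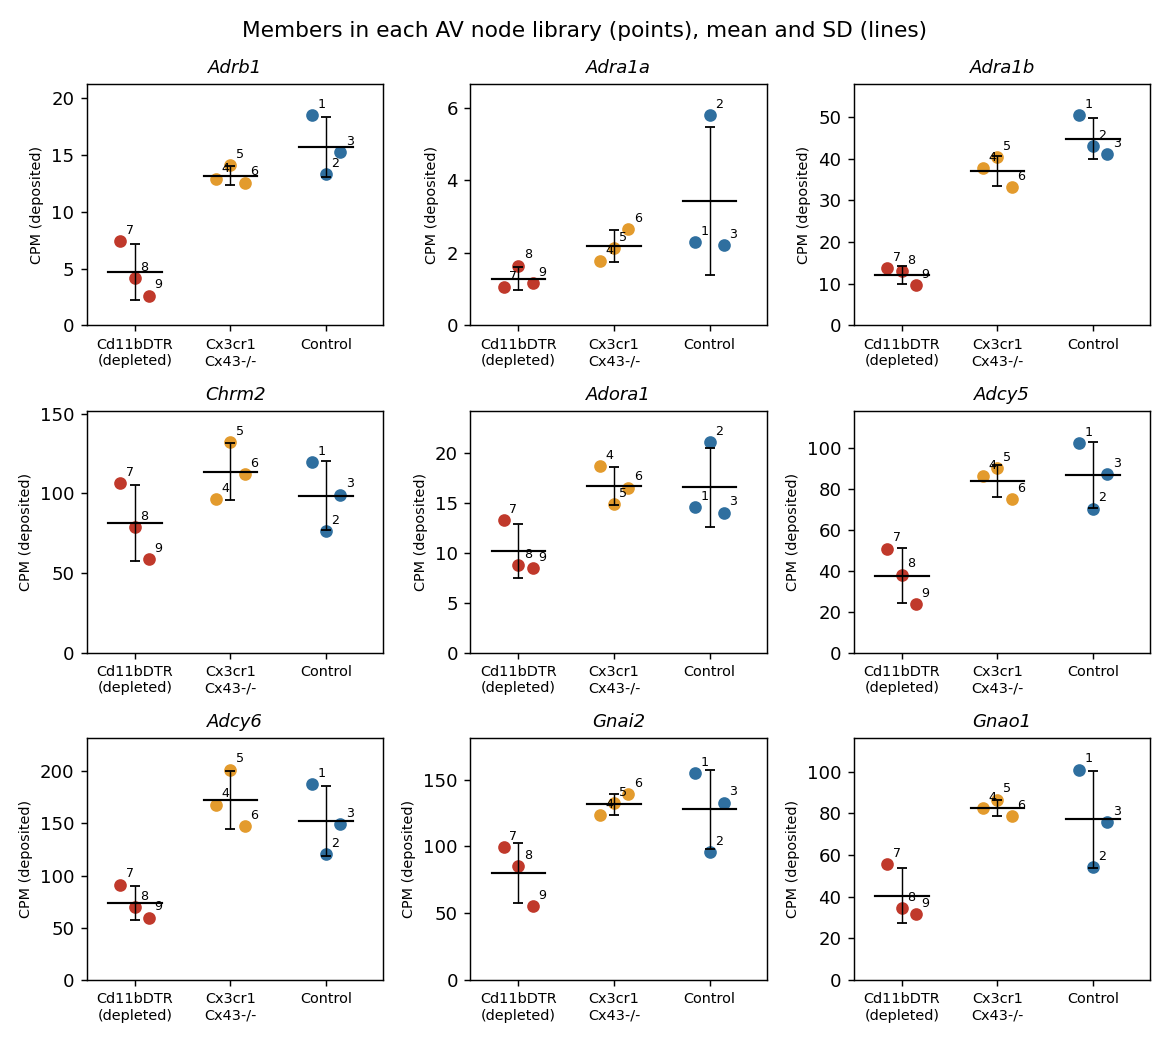
Deposited CPM of the 9 genes (vertical axes, each from 0) in Cd11bDTR, Cx3cr1 Cx43-/- and Control libraries (points, numbered as in the labels), with the mean and SD of each group as lines. Adrb1 and Adra1b have their highest Cd11bDTR libraries at 7.44 and 13.80 CPM, under all other libraries, while the Chrm2 groups overlap.

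Adrb1 encodes the main beta-adrenergic receptor of heart muscle. It had 7.44, 4.16 and 2.62 CPM in Cd11bDTR libraries 7, 8 and 9, against 18.53, 13.33 and 15.26 CPM in Control libraries 1, 2 and 3. The groups did not overlap, and the highest Cd11bDTR library stood well under the lowest Control library. The log2 change was -1.72 (SE 0.29, limma adjusted p = 0.000149), or -1.24 relative to the median of all genes. Adra1b, an alpha-1 receptor of cardiomyocytes, had 13.80, 12.99 and 9.64 CPM in Cd11bDTR and 50.44, 42.93 and 41.12 CPM in Control libraries. Its Cd11bDTR libraries lay close together, far under all Control libraries. The log2 change was -1.85 (SE 0.22, limma adjusted p = 1.54e-06), or -1.37 relative to the median. Both calls held under all 16 other settings tried, with log2 changes of -2.08 to -1.24 for Adrb1 and -1.95 to -1.38 for Adra1b.

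Adra1a, another alpha-1 receptor, was the lowest of the 9 genes, at 1.05, 1.65 and 1.17 CPM in Cd11bDTR and 2.3, 5.80 and 2.22 CPM in Control libraries. The groups did not overlap, and Control library 2 stood above the rest. The log2 change was -1.04 (SE 0.38, limma adjusted p = 0.0382), or -0.55 relative to the median. The call ended without Control library 2 (-0.64, limma adjusted p = 0.181), Cd11bDTR library 7 (adjusted p = 0.0674) or Cd11bDTR library 9 (adjusted p = 0.0796), and under both rescalings described below.

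Chrm2, the muscarinic receptor through which the vagus slows the node, had 106.40, 78.92 and 58.90 CPM in Cd11bDTR and 119.62, 76.38 and 99.19 CPM in Control libraries. The groups overlapped, with Cd11bDTR library 7 above both lower Control libraries. Its log2 change was -0.29 (SE 0.23, limma adjusted p = 0.328), with a 95% interval of -0.77 to 0.19. Relative to the median of all genes it was 0.20. The interval excludes changes the size of those of Adrb1 and Adra1b, and it does not show that Chrm2 was equal in both groups. In the annotation, Chrm2 shares its place with the non-coding gene 9330158H04Rik on the opposite strand, which reached up to 25.9 CPM. The library kit keeps strand, but no source used here says whether the counting used it.

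Adora1, the receptor by which adenosine blocks AV conduction, had 13.29, 8.75 and 8.45 CPM in Cd11bDTR and 14.54, 21.05 and 14.02 CPM in Control libraries. Every Cd11bDTR library was under every Control library, by a narrow margin for library 7. The log2 change was -0.68 (SE 0.25, limma adjusted p = 0.0379), or -0.20 relative to the median of all genes. The call ended without Control library 1 (adjusted p = 0.0627), 2 (adjusted p = 0.149) or 3 (adjusted p = 0.0568), and without Cd11bDTR library 8 (adjusted p = 0.1) or 9 (adjusted p = 0.0831). A pair of receptors for the slowing signals thus had either no call or a call that depended on single libraries.

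Adcy5 and Adcy6 encode the adenylyl cyclases typical of heart muscle, which Gi proteins and calcium inhibit. Adcy5 had 50.84, 38.12 and 23.76 CPM in Cd11bDTR and 102.55, 70.43 and 87.24 CPM in Control libraries. Adcy6 had 91.23, 69.62 and 59.69 CPM in Cd11bDTR and 187.42, 120.36 and 149.29 CPM in Control libraries. In both genes the groups did not overlap, and Cd11bDTR library 9 was the lowest library. The log2 change was -1.25 for Adcy5 (SE 0.24, limma adjusted p = 0.00046) and -1.05 for Adcy6 (SE 0.22, limma adjusted p = 0.00106). Relative to the median of all genes these were -0.76 and -0.56. Both calls held under all 16 other settings. The ratio of Adcy5 to Adcy6 CPM within a library was 0.501 ± 0.0892 in Cd11bDTR and 0.572 ± 0.0217 in Control libraries (SD, n = 3), with overlapping groups.

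Gnai2 encodes an alpha subunit of Gi and Gnao1 that of Go, the proteins that Chrm2 and Adora1 act through. Gnai2 had 99.24, 85.16 and 55.04 CPM in Cd11bDTR and 154.85, 95.80 and 132.78 CPM in Control libraries. Its groups overlapped by a single pair, Cd11bDTR library 7 above Control library 2. Its log2 change was -0.69 (SE 0.23, limma adjusted p = 0.0225), or -0.20 relative to the median of all genes. Gnao1 had 55.44, 34.38 and 31.58 CPM in Cd11bDTR and 101.03, 54.16 and 75.93 CPM in Control libraries, again with Cd11bDTR library 7 just above Control library 2. The log2 change of Gnao1 was -0.92 (SE 0.24, limma adjusted p = 0.00516), or -0.43 relative to the median. Without Control library 1 both calls ended, at adjusted p = 0.136 for Gnai2 and 0.0543 for Gnao1. That of Gnai2 also ended without Control library 3 (adjusted p = 0.0850) or Cd11bDTR library 9 (adjusted p = 0.0777).

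The order of the libraries within the Cd11bDTR group was alike in most of these genes. In 8 of the 9, the exception being Adra1a, library 7 was highest and library 9 lowest, the order of the share of CPM in listed genes (44.0%, 37.7% and 28.3%). The same held in 6 of the 9 genes in Control and 5 in Cx3cr1 Cx43-/- libraries. The differences between groups were recomputed on 2 other scales. After the listed genes of each column were brought to the same sum, here called a common total, the median of all genes was -0.18. On that scale 2534 of the 12925 tested genes were called lower. Of the 9 genes, 5 were called lower. These were Adrb1 (-1.42, limma adjusted p = 0.000271), Adra1b (-1.53, adjusted p = 2.33e-06), Adcy5 (-0.91, adjusted p = 0.000253), Adcy6 (-0.71, adjusted p = 0.00153) and Gnao1 (-0.59, adjusted p = 0.0152). With median-of-ratios scaling the median of all genes was -0.03, and 1675 of the 12925 tested genes were called lower. Of the 9 genes, 4 were called lower. They were Adrb1 (-1.28), Adra1b (-1.38), Adcy5 (-0.76) and Adcy6 (-0.56), while Gnao1 missed the threshold (-0.43, adjusted p = 0.0511). Chrm2 changed sign between scales without passing the test on any, with 0.04 (adjusted p = 0.836) after rescaling to a common total and 0.20 (adjusted p = 0.284) with median-of-ratios scaling. Gnai2 (-0.36 and -0.20), Adora1 (-0.36 and -0.21) and Adra1a (-0.78 and -0.66) kept a negative value without a call on both. Over all genes, the share of calls that were higher was 8.91% on the deposited scale, 31.0% after rescaling to a common total and 50.2% with median-of-ratios scaling.

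**Figure D2:**
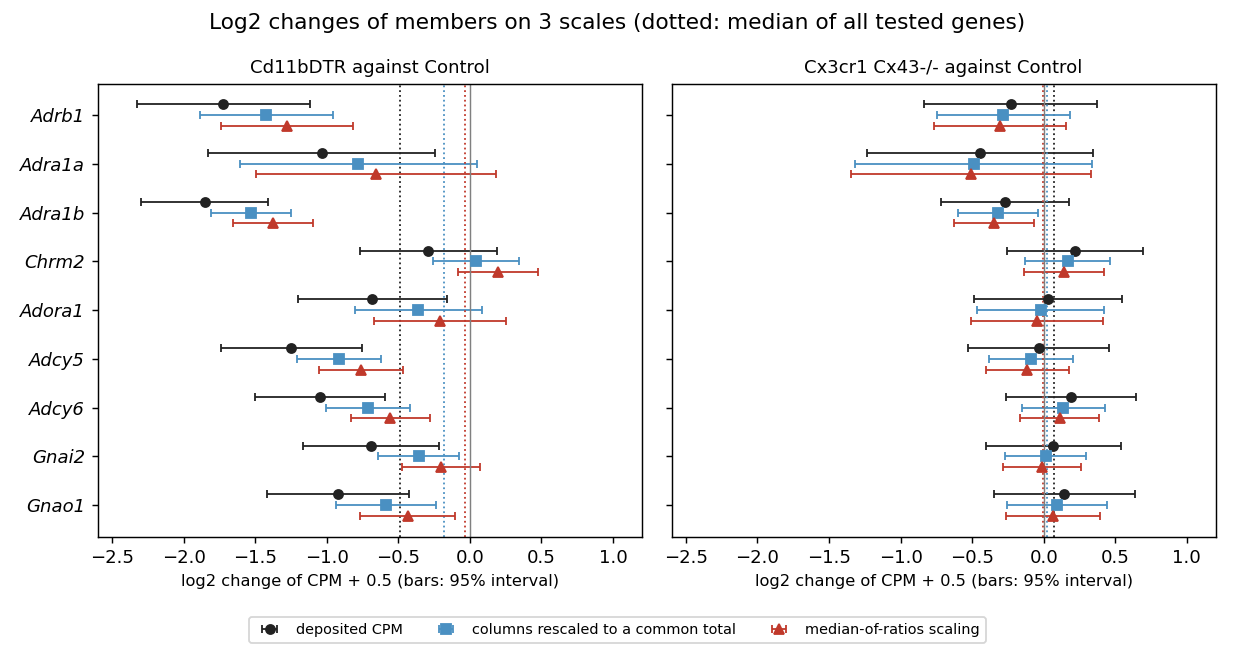
Log2 change of CPM + 0.5 (horizontal axis) of the 9 genes in Cd11bDTR against Control (left) and Cx3cr1 Cx43-/- against Control (right), on the deposited scale (black), after rescaling to a common total (blue) and with median-of-ratios scaling (red). Bars are 95% intervals and dotted lines the median of all tested genes. The intervals are not adjusted for the number of genes tested. On the left, those of Adrb1, Adra1b, Adcy5, Adcy6 and Gnao1 stay below 0 on all 3 scales, and that of Chrm2 spans 0 on each. On the right, all deposited intervals span 0.

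A ratio of 2 genes within a library does not depend on the scale of that library. Chrm2 was taken as the denominator after its values were seen, so the ratios are a description and carry no test. They compare groups and not levels between genes. The ratio of Adrb1 to Chrm2 was 0.0699, 0.0527 and 0.0445 in Cd11bDTR libraries 7, 8 and 9, against 0.155, 0.175 and 0.154 in Control libraries. The groups did not overlap, and the mean log2 difference was -1.55. The ratio of Adra1b to Chrm2 averaged 0.153 ± 0.0199 in Cd11bDTR and 0.466 ± 0.0832 in Control libraries (SD, n = 3), a log2 difference of -1.60. For the cyclases, the ratio of Adcy5 to Chrm2 averaged 0.455 ± 0.0445 in Cd11bDTR and 0.886 ± 0.0329 in Control libraries. That of Adcy6 to Chrm2 averaged 0.918 ± 0.0838 in Cd11bDTR and 1.55 ± 0.0385 in Control libraries. Neither pair of groups overlapped, and the Control libraries lay within a narrow range. Gnai2 and Gnao1 also stood lower relative to Chrm2 without overlap, by log2 differences of -0.40 and -0.64, while the ratios of Adra1a and Adora1 to Chrm2 overlapped between groups. The change of Chrm2 itself was 0.20 above the median of all genes, so a gene at that median also falls relative to Chrm2. The share of all genes that lie lower without overlap relative to Chrm2 was not computed. The ratio of Gnao1 to Gnai2 was 0.512 ± 0.0941 in Cd11bDTR and 0.597 ± 0.0485 in Control libraries, with overlap.

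**Figure D3:**
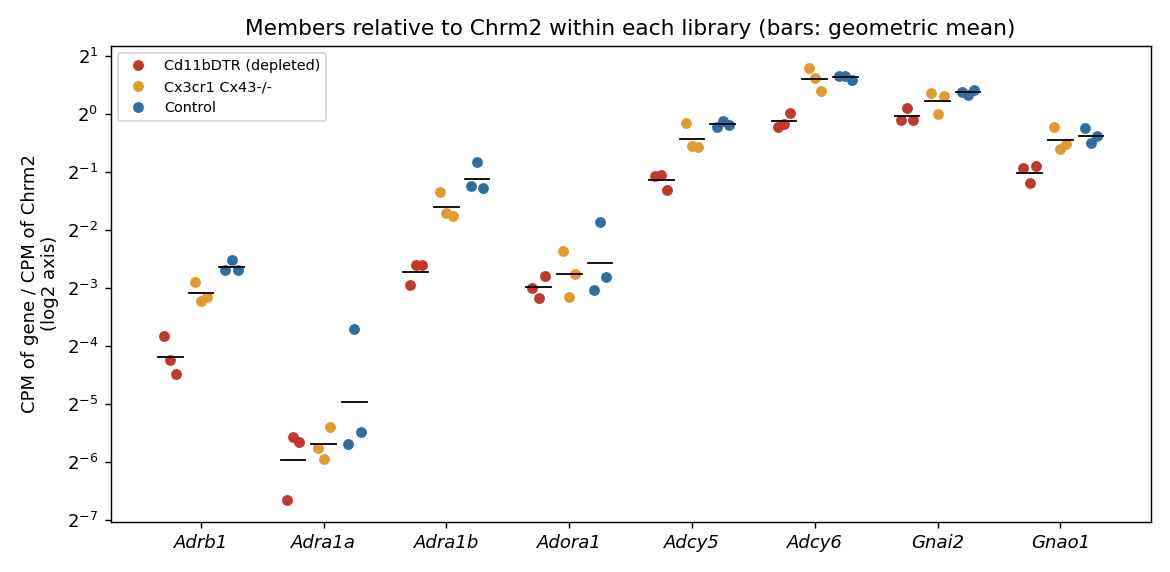
CPM of each of the other 8 genes divided by the CPM of Chrm2 in the same library (vertical axis, log2 scale), for Cd11bDTR (red), Cx3cr1 Cx43-/- (orange) and Control (blue) libraries, with the geometric mean as a bar. Adrb1 and Adra1b have no overlap between any of the groups, with Cd11bDTR lowest and Control highest, and the ratios of Adra1a and Adora1 overlap.

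Promoter letters are shown for 3 of the genes, a receptor and a cyclase that were called lower and the muscarinic receptor that was not. The sequences are the 250 bases before the start of the gene in RefSeq (GRCm38.p6), which had an entry for 6 of the 9 genes, and the files name another build (mm9). Capitals mark matches on either strand to GGGCGG (the GC box, bound by Sp factors) or to TGACG (the core of the cyclic AMP response element). Adrb1 lies at chr19:56721867-56722116, Adcy5 at chr16:35154614-35154863 and Chrm2 at chr6:36387834-36388083, all on the plus strand.
Adrb1: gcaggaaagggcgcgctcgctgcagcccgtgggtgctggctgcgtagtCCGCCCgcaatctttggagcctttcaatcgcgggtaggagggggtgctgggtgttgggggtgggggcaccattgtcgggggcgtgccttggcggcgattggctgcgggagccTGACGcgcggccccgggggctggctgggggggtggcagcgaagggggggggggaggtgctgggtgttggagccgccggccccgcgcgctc
Adcy5: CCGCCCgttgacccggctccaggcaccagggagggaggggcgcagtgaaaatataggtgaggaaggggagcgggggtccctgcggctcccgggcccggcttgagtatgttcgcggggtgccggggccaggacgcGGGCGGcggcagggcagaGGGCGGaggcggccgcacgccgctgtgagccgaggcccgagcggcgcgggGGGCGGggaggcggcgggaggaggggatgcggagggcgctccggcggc
Chrm2: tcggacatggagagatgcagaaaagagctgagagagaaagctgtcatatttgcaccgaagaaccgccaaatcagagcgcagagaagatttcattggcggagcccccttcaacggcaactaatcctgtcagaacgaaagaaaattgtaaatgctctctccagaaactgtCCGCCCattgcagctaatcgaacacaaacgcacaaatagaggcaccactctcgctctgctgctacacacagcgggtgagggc
The Adcy5 window held 4 GC boxes, and those of Adrb1 and Chrm2 held 1 each. The Adrb1 window also held 1 match to TGACG. No window of the 3 held TATAAA or CACGTG, and no 2 matches overlapped. Of 32851 promoter windows of this length, 32.7% held GGGCGG, 17.8% TGACG, 12.4% TATAAA and 6.02% CACGTG. The windows of Adrb1 and Adcy5 were 74% and 78% G or C, that of Chrm2 was 50%, and the mean over all windows was 53.2%. Of the other genes with an entry, Adra1b had windows of 41.6% and 72.8%, with 0 and 1 GC boxes. Those of Adora1 were 64.4% and 65.2%, with 3 and 0 GC boxes, and that of Gnao1 was 76.4%, with 0. These matches describe the letters only, and their part in the measured differences was not tested.

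Levels were compared between genes per kilobase of annotated exon, using exon lengths of a newer annotation than the one the files were counted with. In Control nodes the order of CPM per kilobase was Gnai2 (33.8 ± 7.90), Adcy6 (22.5 ± 4.96), Chrm2 (16.3 ± 3.57), Adra1b (13.3 ± 1.46), Adcy5 (12.1 ± 2.24), Gnao1 (6.97 ± 2.12), Adrb1 (4.64 ± 0.777), Adora1 (2.86 ± 0.677) and Adra1a (0.394 ± 0.234, SD, n = 3 for each). Neighbours from Gnai2 to Adcy5 overlapped in their library values, as did Gnao1 and Adrb1, and the remaining neighbours did not. In Cd11bDTR nodes Gnai2 (21.1 ± 5.98) came before Chrm2 (13.4 ± 3.94), Adcy6 (10.8 ± 2.38), Adcy5 (5.23 ± 1.89), Gnao1 (3.66 ± 1.18), Adra1b (3.59 ± 0.652), Adora1 (1.76 ± 0.469), Adrb1 (1.40 ± 0.728) and Adra1a (0.148 ± 0.0364). Neighbours from Gnai2 to Adcy6, from Adcy5 to Adra1b, and Adora1 and Adrb1 overlapped there. In that order Adra1b stood behind Gnao1, and Adrb1 behind Adora1, in contrast to Control. Cx3cr1 Cx43-/- nodes had the order of Control except that Adcy5 (11.7 ± 1.10) came before Adra1b (11.0 ± 1.08), with overlap.

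The rest of the pathway was read from lists of 138 genes in all, the 9 included, of which 116 were tested. In Cd11bDTR against Control, 59 of the 116 were called lower and 1 higher, with a median log2 change of -0.72, beside 33% of all tested genes called lower and a median of -0.49. With columns set to a common total these counts were 40 and 5, and median-of-ratios scaling gave 31 and 6. Of all 12925 tested genes, 2534 were lower and 1136 higher with a common total. With median-of-ratios scaling 1675 of them were lower and 1687 higher. Among the receptors, 4 of 6 tested adrenergic genes, 0 of 1 muscarinic gene and 1 of 2 adenosine genes were lower on the deposited scale. The alpha-1 receptor Adra1d was at 0.26, 0 and 0.08 CPM in Cd11bDTR libraries and at 2.34, 0.35 and 1.59 CPM in Control libraries (limma adjusted p = 0.0169). It is too close to 0 for a fold.

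Of 8 tested cyclases 4 were lower, the members Adcy5 and Adcy6 together with Adcy9 (1.49 ± 0.415 CPM in Cd11bDTR, 4.50 ± 1.46 CPM in Control, log2 change -1.30) and the calcium-stimulated Adcy1 (2.08 ± 1.71 and 7.55 ± 5.65 CPM, -1.57). The calls of Adcy9 and Adcy1 ended with median-of-ratios scaling (adjusted p = 0.0701 and 0.0816), and that of Adcy1 also with a common total (adjusted p = 0.0561). Of 11 tested G protein alpha subunits 5 were lower, among them the Gq class genes Gna11 (20.9 ± 4.84 CPM in Cd11bDTR, 42.2 ± 5.33 CPM in Control, -1.01) and Gnaq (9.96 ± 1.79 and 19.1 ± 1.82 CPM, -0.92). With median-of-ratios scaling 1 of the 11, Gna11, was lower and 1 was higher. Of 13 tested beta and gamma subunits 4 were lower, close to the 33% of all genes, and the list median of -0.32 lay above the -0.49 of all genes. With a common total 3 of the 13 were lower, and 1 with median-of-ratios scaling. Gng7 was listed at 0 in Cd11bDTR libraries 7 and 8 and at 0.05 CPM in library 9, against 2.42, 2.34 and 1.52 CPM in Control libraries (limma adjusted p = 0.000208), which is too near 0 for a fold.

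Cyclic nucleotide phosphodiesterases, which break down cyclic AMP and cyclic GMP, had 10 of 17 tested genes lower and 1 higher, beside 33% of all genes lower. A common total gave 5 lower and 2 higher, and median-of-ratios scaling 4 lower and 2 higher. Pde4a, a cyclic AMP hydrolase, averaged 12.6 ± 4.06 CPM in Cd11bDTR and 54.4 ± 17.7 CPM in Control libraries (SD, n = 3), a log2 change of -2.08 (limma adjusted p = 2.81e-06). Pde2a, which cyclic GMP stimulates, averaged 20.1 ± 3.90 and 47.1 ± 1.76 CPM (-1.23, adjusted p = 0.000137). The calcium-dependent Pde1a was the gene of all the lists called higher on the deposited scale, and was named after its values were seen. It averaged 12.6 ± 1.55 CPM in Cd11bDTR and 7.29 ± 1.5 CPM in Control libraries (0.76, adjusted p = 0.0220), without overlap. Of 9 protein kinase A genes 6 were lower, or 3 with a common total and 2 with median-of-ratios scaling. They included the catalytic subunit Prkaca (60.4 ± 13.7 and 127 ± 8.54 CPM, -1.10) and the regulatory subunit Prkar2a (9.87 ± 0.588 and 22.3 ± 8.10 CPM, -1.08). Other cyclic AMP effectors had 1 of 5 lower, the exchange factor Rapgef4 (-0.98, adjusted p = 0.0128), with no call on either other scale.

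Receptor kinases and arrestins, which shut receptors off, had 3 of 7 genes lower, including Arrb2 (-0.99, limma adjusted p = 0.0107) and Grk6 (-0.71, adjusted p = 0.0292). None of the 3 was called lower on either other scale, where 1 of the 7 was higher. Of 10 anchoring proteins of protein kinase A, 6 were lower, beside 33% of all genes. These were 5 with a common total, and 3 with 1 higher under median-of-ratios scaling. The mitochondrial anchor Akap1 averaged 24.9 ± 3.35 CPM in Cd11bDTR and 70.3 ± 18.7 CPM in Control libraries (SD, n = 3, -1.45, adjusted p = 3.97e-05). Akap5, which ties the kinase to receptors at the membrane, was at 0.07, 0 and 0 CPM in Cd11bDTR and at 2.24, 1.26 and 2.25 CPM in Control libraries (adjusted p = 0.000472). That is too near 0 for a fold.

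Channels and calcium handling proteins on which the pathway acts had 8 of 12 genes lower, beside 33% of all tested genes. Their median was -1.23, against -0.49 for all tested genes. On both other scales 8 were lower too. Of all 12925 tested genes, 2534 were lower with a common total and 1675 with median-of-ratios scaling. Hcn4, the main pacemaker channel of the node, which binds cyclic AMP, had 3.80, 1.80 and 2.66 CPM in Cd11bDTR and 18.85, 15.45 and 19.26 CPM in Control libraries (log2 change -2.54, limma adjusted p = 4.1e-07). Hcn2 averaged 1.66 ± 0.872 CPM in Cd11bDTR and 9.82 ± 1.75 CPM in Control libraries (SD, n = 3, -2.34). Both stood far under Control in every Cd11bDTR library. Kcnj3 and Kcnj5, the subunits of the potassium channel that Chrm2 and Adora1 open, were named after their values were seen. Kcnj3 had 30.06, 49.11 and 20.88 CPM in Cd11bDTR and 160.45, 77.33 and 110.89 CPM in Control libraries (-1.81). Kcnj5 had 66.59, 57.19 and 39.05 CPM in Cd11bDTR and 154.73, 114.22 and 121.39 CPM in Control libraries (-1.28). Kcnj3 and Kcnj5 were thus without overlap between the groups, as was the receptor Adora1, whereas the receptor Chrm2 overlapped. Of all tested genes, 38% lay lower without overlap. Of 15 tested genes of transmitter synthesis, uptake and breakdown 7 were lower on each of the 3 scales. With a common total 1 of the 15 was higher, and 1 with median-of-ratios scaling. Acetylcholinesterase, Ache, averaged 3.07 ± 0.900 CPM in Cd11bDTR and 17.3 ± 1.82 CPM in Control libraries (-2.34). Ddc, an enzyme of catecholamine synthesis, averaged 4.19 ± 1.37 and 17.0 ± 2.02 CPM (-1.94). Th and Chat, which make the transmitters in sympathetic and vagal neurons, were listed at 0 in all Cd11bDTR and Cx3cr1 Cx43-/- libraries and reached at most 0.27 and 0.12 CPM in Control libraries.

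**Figure D4:**
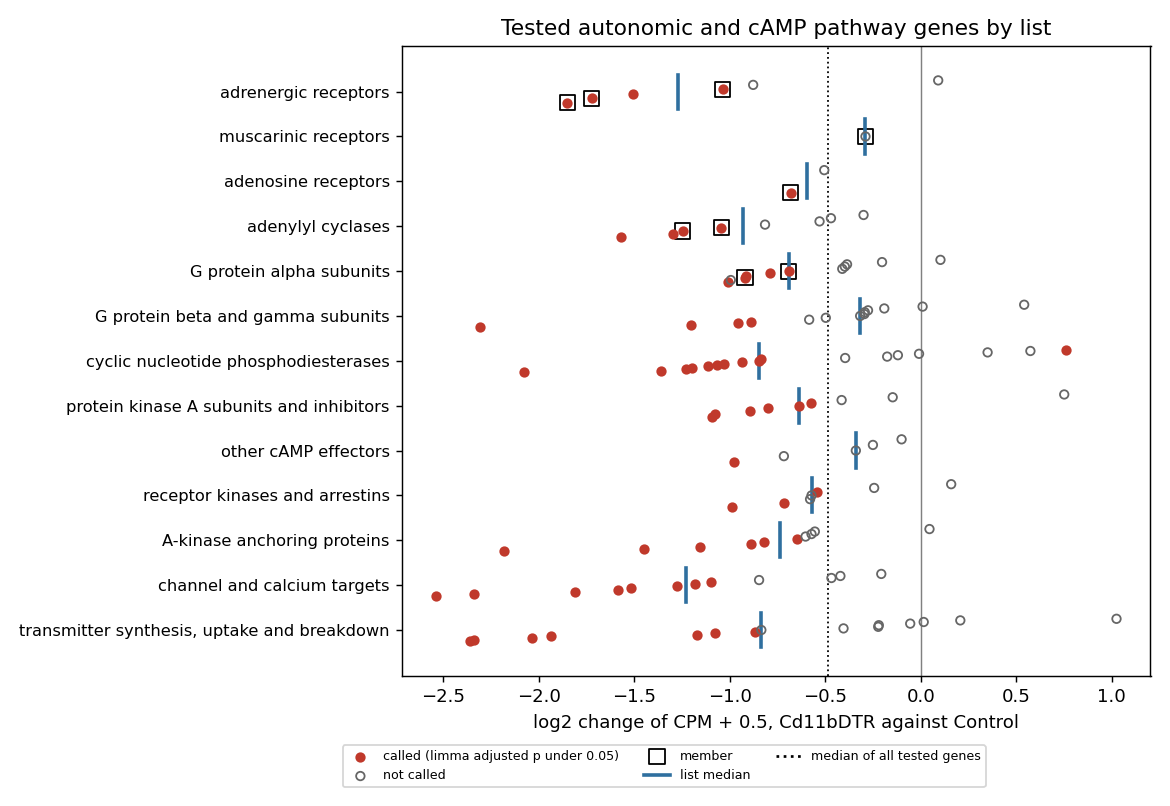
Log2 change of CPM + 0.5 in Cd11bDTR against Control (horizontal axis) of each tested gene in 13 lists of the pathway (rows), with called genes filled, the 9 genes described here boxed, and list medians as blue bars. The dotted line is the median of all tested genes (-0.49). All called genes but Pde1a lie left of 0, and the medians of adrenergic receptors (-1.27) and of channel and calcium targets (-1.23) lie furthest left.

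Markers of the cells that could hold these genes were read beside them, and their counts stand against the 33% of all tested genes called lower in Cd11bDTR than in Control. The summed level of 13 AV node and conduction markers ranged from 151 to 216 CPM in Cd11bDTR, 677 to 836 CPM in Cx3cr1 Cx43-/- and 699 to 822 CPM in Control libraries, and 10 of 12 tested were lower in Cd11bDTR than in Control. That of 8 general cardiomyocyte markers ranged from 12938 to 21354 CPM in Cd11bDTR, 26839 to 27791 CPM in Cx3cr1 Cx43-/- and 24844 to 28071 CPM in Control libraries, with 2 of 8 lower. Atrial markers ranged from 3107 to 6550 CPM in Cd11bDTR, 6101 to 8266 CPM in Cx3cr1 Cx43-/- and 4282 to 7512 CPM in Control libraries, with 2 of 8 lower. The conduction markers of Cd11bDTR nodes lay far under the other groups. The sums of general cardiomyocyte markers also lay under both other groups without overlap, while the atrial sums overlapped with Control. The counts of general and atrial markers called lower were near the share of all genes. Ventricular markers ranged from 2729 to 3858 CPM in Cd11bDTR, 5322 to 5799 CPM in Cx3cr1 Cx43-/- and 4753 to 7305 CPM in Control libraries, with 5 of 8 lower. Schwann cell markers ranged from 26.3 to 30.2 CPM in Cd11bDTR, 39.8 to 58.0 CPM in Cx3cr1 Cx43-/- and 48.7 to 67.0 CPM in Control libraries, with 5 of 7 lower. Autonomic neuron markers ranged from 23.4 to 29.0 CPM in Cd11bDTR, 29.7 to 37.0 CPM in Cx3cr1 Cx43-/- and 31.2 to 35.9 CPM in Control libraries, with 1 of 4 tested lower. In that list Th and Chat were at or near 0 in every group. Dbh, another gene of that list, was named after its values were seen. It had 2.05, 3.07 and 0.54 CPM in Cd11bDTR, 10.33, 6.8 and 9.9 CPM in Cx3cr1 Cx43-/- and 10.8, 12.72 and 8.06 CPM in Control libraries. Its Cd11bDTR libraries lay under all others. The 4 tested genes of the list had a median log2 change of 0.05 in Cd11bDTR against Control, so Dbh does not stand for the list.

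The myeloid cells themselves were measured by 14 macrophage markers, of which 11 were lower in Cd11bDTR than in Control, with sums of 68.1 to 78.6 CPM in Cd11bDTR, 403 to 535 CPM in Cx3cr1 Cx43-/- and 264 to 415 CPM in Control libraries. Of 5 tested monocyte and neutrophil markers 3 were higher, with sums of 31.5 to 51.5 CPM in Cd11bDTR, 6.31 to 12.9 CPM in Cx3cr1 Cx43-/- and 4.60 to 9.19 CPM in Control libraries. Cd11bDTR nodes thus had less RNA of most of these macrophage markers and more of 3 of the 5 tested monocyte and neutrophil markers. Endothelial markers had sums of 165 to 287 CPM in Cd11bDTR, 455 to 530 CPM in Cx3cr1 Cx43-/- and 299 to 461 CPM in Control libraries, with 3 of 7 lower, near the 33% of all genes. Fibroblast markers had sums of 2546 to 2572 CPM in Cd11bDTR, 3345 to 3454 CPM in Cx3cr1 Cx43-/- and 2591 to 2979 CPM in Control libraries, with 1 of 7 higher and 0 lower. The part of any of these lists in the differences of the 9 genes was not tested.

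Nodes lacking connexin 43 in Cx3cr1-expressing cells were compared with Control nodes in the same fit. None of the 9 genes was called in either direction, and on the deposited scale the unadjusted p was under 0.05 for 0 of them, against 1, Adra1b, on each of the 2 other scales. Of all genes limma called 1 (0.00774%), and 191 had an unadjusted p under 0.05. Adrb1 had 12.89, 14.12 and 12.58 CPM in Cx3cr1 Cx43-/- libraries 4, 5 and 6, against the Control values above (log2 change -0.23, 95% interval -0.84 to 0.37). Its groups overlapped, with library 5 above the lowest Control library. Adra1b had 37.71, 40.35 and 33.15 CPM in Cx3cr1 Cx43-/- libraries, all under the lowest Control library at 41.12 CPM (-0.27, 95% interval -0.72 to 0.18). It was the 1 gene of the 9 with no overlap, where 3% of all tested genes lay lower and 5.94% higher without overlap. Chrm2 had 96.49, 132.05 and 112.11 CPM in Cx3cr1 Cx43-/- libraries (0.22, 95% interval -0.26 to 0.69), and overlapped with Control.

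Adcy5 had 86.26, 90.23 and 75.05 CPM in Cx3cr1 Cx43-/- libraries (-0.04, 95% interval -0.53 to 0.46), and Adcy6 had 167.99, 201.76 and 147.12 CPM (0.19, 95% interval -0.27 to 0.64). Gnai2 had 123.29, 132.17 and 139.12 CPM in Cx3cr1 Cx43-/- libraries (0.07, 95% interval -0.41 to 0.54), and Gnao1 had 82.31, 86.57 and 78.65 CPM (0.14, 95% interval -0.35 to 0.64). All 4 overlapped with Control, in which the libraries were spread more widely. Adora1 had 18.67, 14.83 and 16.52 CPM in Cx3cr1 Cx43-/- libraries (0.03, 95% interval -0.49 to 0.55). Adra1a had 1.78, 2.14 and 2.65 CPM in Cx3cr1 Cx43-/- libraries (-0.45, 95% interval -1.24 to 0.34). The interval of Adra1a is the widest of the 9, and none of these intervals shows that the groups were equal. Relative to Chrm2, Adrb1 averaged 0.118 ± 0.0141 in Cx3cr1 Cx43-/- and 0.161 ± 0.0116 in Control libraries (SD, n = 3), and Adra1b 0.331 ± 0.0523 and 0.466 ± 0.0832. These 2 ratios did not overlap between the groups, with log2 differences of -0.46 and -0.49, and were looked at after the values of Chrm2 were seen. The change of Chrm2 (0.22) adds to both differences, and none of Chrm2, Adrb1 (-0.23) and Adra1b (-0.27) was called. The share of all genes without overlap relative to Chrm2 was not computed. Of the 116 tested pathway genes 0 were called, and 3 had an unadjusted p under 0.05.

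Cd11bDTR nodes set against Cx3cr1 Cx43-/- nodes, the groups that differ in their myeloid manipulation, gave 7 of the 9 genes lower and 0 higher, where 43.4% of all tested genes were called, 40.7% lower and 2.69% higher. Adra1b (log2 change -1.58, limma adjusted p = 1.13e-05) and Adrb1 (-1.49, adjusted p = 0.000512) again had the largest differences. Adcy6 (-1.23, adjusted p = 0.00021), Adcy5 (-1.21, adjusted p = 0.000522), Gnao1 (-1.06, adjusted p = 0.00152), Gnai2 (-0.76, adjusted p = 0.0116) and Adora1 (-0.71, adjusted p = 0.0267) were lower too. Adra1a (-0.59, adjusted p = 0.21) and Chrm2 (-0.51, adjusted p = 0.0767) did not pass. In 8 of the 9, all but Chrm2, every Cd11bDTR library lay below every Cx3cr1 Cx43-/- library, as it did in 50.6% of all tested genes, while 3.39% lay higher. The median of all tested genes was -0.58 here, and that of the 9 genes -1.06. With median-of-ratios scaling 5 remained lower, without Gnai2 and Adora1, and Chrm2 stood at 0.06. On that scale 1672 of all 12925 tested genes were lower. Chrm2 passed the test without Cd11bDTR library 7 (-0.72, adjusted p = 0.0111). The Adora1 call ended without Cx3cr1 Cx43-/- library 4, 5 or 6 (adjusted p = 0.106, 0.0551 and 0.0797) and without Cd11bDTR library 8 or 9 (adjusted p = 0.0752 and 0.0628). Of the 116 pathway genes 65 were lower and 0 higher. This comparison shares its Cd11bDTR libraries with that against Control.

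Genes whose pattern over the 9 libraries was most like that of 3 of the receptors were found by the mean absolute difference of centred log2(CPM + 0.5) values. Nearest to Adrb1 were Paqr4 (0.110), Inpp5e (0.114) and 2310003H01Rik (0.114). Paqr4 averaged 4.84 CPM in Cd11bDTR, 12.8 CPM in Cx3cr1 Cx43-/- and 13.8 CPM in Control libraries. Nearest to Chrm2 were Herc2 (0.0538), Map4k4 (0.0571) and Snx25 (0.0637). Herc2 averaged 26.4 CPM in Cd11bDTR, 35.6 CPM in Cx3cr1 Cx43-/- and 31.8 CPM in Control libraries. Nearest to Adora1 were C030006K11Rik (0.0814), Tmem136 (0.0897) and Lcmt1 (0.0936). The values were centred but not scaled by their spread, so these distances do not compare between the 3 receptors.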

How the data were processed

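Bulk RNA-seq libraries of AV nodes were grouped by the genotype in the labels, 3 per group. Per the labels' protocols, DNase-treated total RNA was made into strand-directional libraries. The submitters' processing notes name the mm9 build, edgeR, HTSeq 0.6.0 and STAR 2.3.0 without their roles. The authors deposited CPM rounded to 2 decimals, in 9 columns matched to samples by name. The columns summed to 28.3% to 48.7% of the CPM total, and no source used here says what makes up the rest. No 2 libraries were identical. Reads were not rebuilt, and no count model was fitted.

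Here log2(CPM + 0.5) was fitted with limma 3.58.1 in R 4.3.3, in 1 linear model of all 9 libraries with trended empirical Bayes, and 3 contrasts were tested two-sided. The filter, 1 CPM or more in 3 or more libraries, kept 12925 genes. Calls are those with p under 0.05 after Benjamini-Hochberg adjustment over all of these. Log2 changes understate the change of genes near 0. SE is that of the fit, and SD that over 3 libraries. An exact permutation of 3 against 3 cannot give p below 0.1, so none was used. The script was tested on simulated data. Members, lists and tests were chosen with earlier results of these data known. Beside the members, up to 2 called genes per list with the smallest p in Cd11bDTR against Control were named. Also named were the 3 nearest genes of Adrb1, Chrm2 and Adora1, and Gja1, Cx3cr1 and Itgam as checks of the models. Other settings were a pseudocount of 0.1 or 2, a mean of 5 CPM as the filter or none, a common total, median-of-ratios and quantile scaling, fits of only the 2 groups compared, robust empirical Bayes, library quality weights, and each library left out. Promoters came from RefSeq (GRCm38.p6), exon lengths from GENCODE. Figures were drawn with matplotlib 3.10.9.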

Additional observations from a re-analysis of the deposited data

How the results depend on the processing

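Among the 9 genes, Adrb1, Adra1b, Adcy5 and Adcy6 kept their direction and call in Cd11bDTR against Control under all 16 alternatives run, Gnao1 lost its call in 2, Gnai2 in 7 and Adora1 in 10 of them, and Adra1a in 10 of 15, since it was not in the fit with a mean of 5 CPM. No called gene of the 9 changed sign. Of the 9, 8 were called in Cd11bDTR against Control, against 5 with no filter, 5 with a common total, 4 with median-of-ratios scaling, 5 with only the 2 groups compared, and 5 (without Control library 1 or Cd11bDTR library 9) to 7 with a library left out. In Cd11bDTR against Cx3cr1 Cx43-/- 7 were called, or 6 to 8 with a library left out. Pathway genes called numbered 60 in Cd11bDTR against Control, 37 with median-of-ratios scaling and 43 to 78 with a library left out. In Cd11bDTR against Cx3cr1 Cx43-/- these were 65, 38, 42 with quantile normalization and 45 to 85. Over all genes, Cd11bDTR against Control gave 4678 calls, or 2664 (without Control library 1) to 6274 (without Cd11bDTR library 7) with a library left out. Cd11bDTR against Cx3cr1 Cx43-/- gave 5604, against 3365 with median-of-ratios scaling, 3356 with quantile normalization, and 3302 (without Cx3cr1 Cx43-/- library 5) to 7049 with a library left out. Cx3cr1 Cx43-/- against Control gave 1, against 0 with a pseudocount of 0.1, 2 with a pseudocount of 2, 0 with no filter, 4 with quality weights, and 0 to 2 with a library left out. The cause of these shifts was not tested. No paired analysis was possible because the groups share no replicate numbers. With 3 libraries per group and about 52.2 to 65.0 reads per CPM, genes near 1 CPM, such as Adra1a, are measured least precisely.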
